A study of Mus musculus with 4 samples.

Results

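The collagen genes of cultured calvarial osteoblasts were compared between cells of Runx3f/f/Col1a1-cre mice, which carry a loxP-flanked Runx3 and a Cre recombinase driven by the promoter of the type I collagen gene Col1a1, and wild-type cells. The members were all genes whose symbol has the form of a collagen chain (Col, a type number, the letter a and a chain number) and that had an array row naming that gene alone. There were 44 such genes among 22180 named genes: 11 fibrillar, 3 network-forming, 9 FACIT (fibril-associated collagens with interrupted helices), 8 basement membrane, 4 transmembrane and 6 beaded filament chains, with 3 others. Progenitors from neonatal calvaria of both genotypes had spent 21 days in osteogenic medium with ascorbate and glycerol phosphate, and total RNA of each culture was read on its own Affymetrix Mouse Gene ST array. The design text speaks of purified progenitors, so the stage rests on the growth protocol. Each group had 2 arrays, numbered 1 and 2 in the labels as biological replicates; strain, further age, pooling of animals and the share of cells in which Cre acted are not stated, and the wild-type group is described only as wild type. The Col1a1 promoter is active in type I collagen-making cells, and which cells of a culture lost Runx3 was not tested. Since nothing states that a number stands for a separate litter or animal, p-values measure the spread between these arrays only.

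Collagens are the main proteins of the extracellular matrix, built from chains that wind around each other along repeats of glycine and further residues. Fibrillar collagens make the tensile fibrils of bone, skin, tendon and cartilage, and osteoblasts are known for secreting type I collagen, onto which bone mineral is laid. FACIT collagens sit on the surface of fibrils, network-forming and basement membrane collagens assemble into sheets, transmembrane collagens span the cell surface, and type VI collagen makes beaded filaments around cells. Runx3 is a Runt-family transcription factor; factors of this family bind a shared short DNA word. Types II, IX, X and XI are known chiefly from cartilage, with type X a mark of hypertrophic chondrocytes.

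Runx3 itself read 7.94 and 8.06 on the arrays labelled Runx3f/f/Col1a1-cre and 7.45 and 7.87 on the wild-type ones, a difference of 0.34 (SE 0.20, limma adjusted p = 1), so the targeted gene was not lower where the labels place its deletion. The labels do not name the deleted exons, and whether the probes of this row lie in them was not tested. The group is therefore called mutant-labelled below, and every direction is that of the labels.

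Among the main collagens of bone matrix, Col1a1 and Col1a2 lay within 0.02 of 0 on the log2 scale, while the largest difference of any collagen was in Col10a1, 4.15-fold lower on the mutant-labelled arrays. Col1a1 and Col1a2 read near the top of the range of each array, and whether differences are compressed there was not tested. At least 1.5-fold lower within both replicates were 5 of the 44 genes, Col10a1, Col26a1, Col14a1, Col2a1 and Col22a1, beside 0.933% of all named genes, and 0 were that much higher in both, beside 1.2% of all named genes. In limma, fitted across the 17043 genes above a detection floor, 0 collagen genes passed an adjusted p under 0.05, and 0% of all tested genes did. At an unadjusted p under 0.05 there were 5, the first 4 of those named above and Col9a3, where 4.35% of tested genes had such a p. Of these 5, 4 were also at least 1.5-fold lower, beside 1.33% of tested genes, and 0 at least 1.5-fold higher, beside 1.4%. With the replicate number as a block, limma gave an unadjusted p under 0.05 to 9 collagens, Col2a1, Col5a3, Col8a1, Col10a1, Col11a2, Col14a1, Col22a1, Col24a1 and Col27a1 (13.6% of tested genes) and an adjusted one to 0 collagens, as to 0% of all genes.

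The bases before the start are shown for 5 of the genes. Col10a1 had the largest difference of all collagens. Col8a1 and Col7a1 are among the 4 collagens higher on both mutant-labelled arrays than on either wild-type array, beside 6.35% of all named genes. Col3a1 and Col1a2 are main fibril chains with nearly equal values. Each run is the 250 bases before the annotated start in RefSeq, build GRCm38.p6, and capitals mark a match to TGTGGT, the core word of Runt-domain binding, or to TATAAA, the word of the TATA box, on either strand.
Col10a1, chr10:34389731-34389980, plus strand: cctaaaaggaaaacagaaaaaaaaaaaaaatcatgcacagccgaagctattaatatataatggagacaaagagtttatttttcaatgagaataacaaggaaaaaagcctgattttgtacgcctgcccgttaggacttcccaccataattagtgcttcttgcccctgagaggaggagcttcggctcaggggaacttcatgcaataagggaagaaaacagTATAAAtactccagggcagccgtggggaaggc
Col8a1, chr16:57754738-57754987, minus strand: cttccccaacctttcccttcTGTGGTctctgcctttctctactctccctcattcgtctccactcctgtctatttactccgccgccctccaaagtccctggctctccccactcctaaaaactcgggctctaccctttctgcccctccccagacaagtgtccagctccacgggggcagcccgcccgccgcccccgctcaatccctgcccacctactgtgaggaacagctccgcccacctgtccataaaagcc
Col7a1, chr9:108953336-108953585, plus strand: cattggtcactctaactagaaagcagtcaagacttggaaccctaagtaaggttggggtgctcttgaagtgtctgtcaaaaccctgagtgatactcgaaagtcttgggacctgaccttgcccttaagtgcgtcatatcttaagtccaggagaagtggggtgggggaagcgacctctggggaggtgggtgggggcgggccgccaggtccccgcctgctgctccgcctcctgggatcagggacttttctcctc
Col3a1, chr1:45311288-45311537, plus strand: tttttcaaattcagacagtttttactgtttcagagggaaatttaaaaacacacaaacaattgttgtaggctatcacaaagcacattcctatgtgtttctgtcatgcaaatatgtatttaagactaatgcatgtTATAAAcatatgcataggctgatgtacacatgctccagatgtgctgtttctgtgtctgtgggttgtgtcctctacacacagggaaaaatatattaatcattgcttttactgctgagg
Col1a2, chr6:4505368-4505617, plus strand: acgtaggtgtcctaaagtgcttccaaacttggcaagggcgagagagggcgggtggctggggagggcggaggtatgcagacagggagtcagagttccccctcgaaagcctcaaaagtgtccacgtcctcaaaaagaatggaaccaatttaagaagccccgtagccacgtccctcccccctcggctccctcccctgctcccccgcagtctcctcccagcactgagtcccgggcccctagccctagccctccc

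The Col10a1 window lies within the annotated gene Nt5dc1, and in it the word TATAAA began 32 bases before the start, and in Col3a1 it began 117 bases before. In Col8a1 the word TGTGGT began 230 bases before the start, while the windows of the other genes higher without overlap, Col7a1, Col23a1 and Col27a1, hold neither word. RefSeq windows were matched for 35 of the 44 genes (38 windows); Col1a1, Col2a1, Col4a3, Col5a2, Col9a3, Col12a1, Col14a1, Col22a1 and Col26a1 are not among them, so the counts leave out 4 of the 5 genes that were 1.5-fold lower in both replicates. In these windows TGTGGT or its reverse complement ACCACA was found for 3 genes, Col8a1, Col17a1 and Col18a1, against 14.0% of all 32851 windows of this length. TATAAA or TTTATA was found for 5 genes, Col3a1, Col10a1, Col11a2, Col13a1 and Col17a1, against 12.4% of all windows. The words do not overlap each other in the runs shown. Such matches describe letters in a short window and say nothing of binding.

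Levels are the authors' deposited values, taken to be log2, so every fold assumes that base. The arrays of replicate 2 read higher than those of replicate 1, with medians over all named genes of 6.86 on both against 6.40 and 6.41. The detection floor was therefore set on each array, as the 90th percentile of 1400 olfactory and vomeronasal receptor rows, and came to 4.51 on both arrays of replicate 1, 5.08 on the mutant-labelled array and 5.07 on the wild-type array of replicate 2. On all 4 arrays 42 collagens lay above it, as did 15839 of all 22180 named genes. Col28a1 did so on 3 arrays, and Col6a5 on the 2 arrays of replicate 2; all 44 were tested.

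Mutant-labelled and wild-type arrays of a replicate held exactly equal values in many rows, which bears on every small difference below. Of the 44 collagens, 7 had equal values in both replicates (Col4a4, Col6a4, Col6a5, Col6a6, Col17a1, Col19a1 and Col25a1) and 10 more in replicate 2 alone, while 27 differed in both. Among all named genes 6542 (29.5%) were equal in both replicates, with no tolerance, and among the 17043 tested genes 4173 were. The labels do not say how such values arose, and an equal value does not establish that a gene's RNA was the same. Counts in either direction are given over all 44 genes. Of these 16 (36.4%) were lower in both replicates, where 16.6% of all named and 20.2% of tested genes were. Higher in both were 9 (20.5%), where 14.3% of all named and 17.4% of tested genes were.

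**Figure D1:**
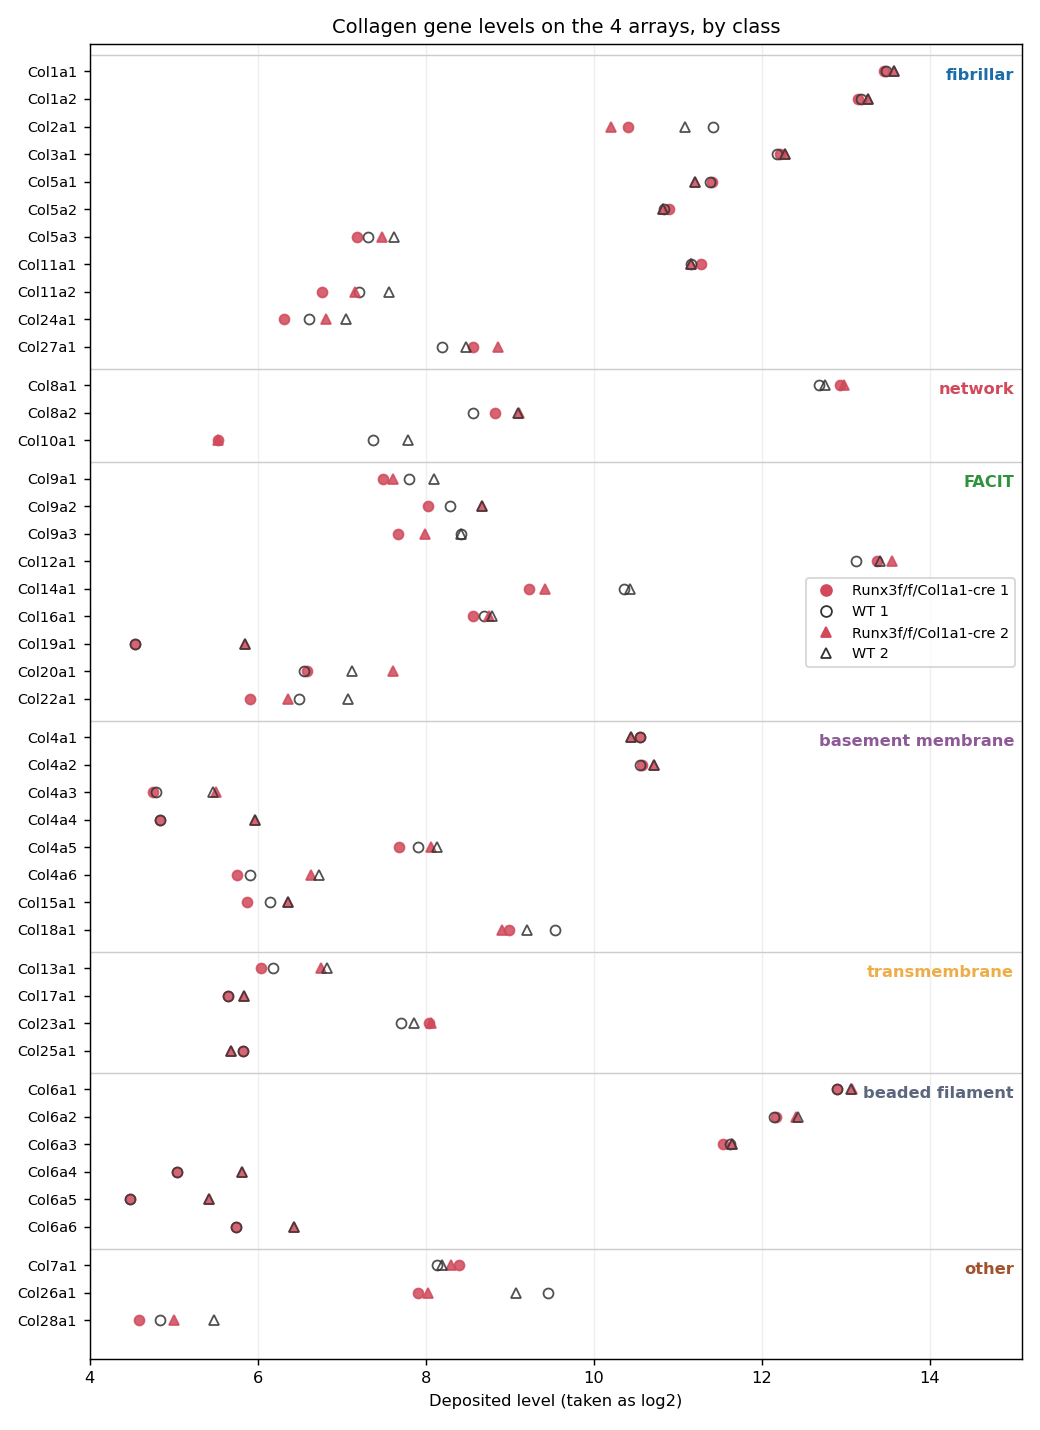
Deposited level of each of the 44 collagen genes (x axis, taken as log2) on the 4 arrays, with genes on the y axis grouped by class; filled red symbols are Runx3f/f/Col1a1-cre, open black symbols are WT, circles replicate 1 and triangles replicate 2. Red and black symbols part in Col10a1 (5.53 and 5.52 against 7.37 and 7.79), Col14a1, Col26a1 and Col2a1, and coincide in the main fibril chains. Levels of different genes come from different probes and are not to be set against each other.

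Among the fibrillar collagens the chains of bone and skin fibrils lay close to 0. Col1a1, which encodes the main chain of type I collagen, read 13.45 and 13.57 on the mutant-labelled arrays and 13.47 and 13.57 on the wild-type ones. Its difference was -0.01 (SE 0.12), with -0.02 within replicate 1 and equal values in replicate 2. Col1a2, its partner chain, read 13.15 and 13.27 against 13.18 and 13.27. The highest value of any row was 13.83 and 14.07 on the mutant-labelled arrays and 13.84 and 14.07 on the wild-type ones. Both genes thus read near the upper end, and whether differences are compressed at that level was not tested. The groups overlapped in both genes, neither difference exceeded its error, and quantile normalization of the values again turned both signs (0.0245 and 0.0132). Col3a1, the chain of type III collagen of skin and vessels, read 12.22 and 12.28 against 12.18 and 12.28, a difference of 0.02. Col5a1 and Col5a2, the type V chains that nucleate type I fibrils, differed by 0.01 and 0.03. In all 5 of these genes the replicate 2 arrays held equal values, and the largest difference within replicate 1 was 0.06 in Col5a2. Col1a2 and Col5a1 each had a second, dimmer row, and these differed by 0.06 and 0.00.

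Col2a1, the single chain of type II collagen of cartilage, was the fibrillar gene with the largest difference. It read 10.41 and 10.21 on the mutant-labelled arrays and 11.42 and 11.09 on the wild-type arrays, so both mutant-labelled arrays lay below both wild-type ones. Within the replicates it differed by -1.01 and -0.88, on average 1.93-fold lower, with a mean difference of -0.95 (SE 0.18, limma adjusted p = 0.595). Col11a2, a chain of type XI collagen that joins type II in cartilage fibrils, read 6.77 and 7.16 against 7.21 and 7.56, again without overlap, at -0.44 and -0.40 within the replicates. Col11a1, which bone and tendon cells make too, did not follow, with 11.27 and 11.16 against 11.16 on each wild-type array. Col24a1 and Col5a3, minor fibrillar chains, were lower in both replicates, by -0.27 and -0.14 in the mean, and their groups overlapped.

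Col27a1, a fibrillar chain found in developing cartilage, went the other way. Its arrays read 8.56 and 8.86 in mutant-labelled and 8.19 and 8.48 in wild-type cultures, with no overlap. The differences within the replicates were 0.37 and 0.39, and the mean of 0.38 (SE 0.19) was not past the threshold (limma adjusted p = 1). Over the 11 fibrillar genes 4 were lower and 1 higher in both replicates, and the class median was -0.01 (0.0245 after quantile normalization again), where the median of all named genes was 0. Beside this count and those of the classes below, 16.6% of all named genes were lower and 14.3% higher in both replicates, with 29.5% equal. Of tested genes 20.2% were lower and 17.4% higher in both.

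The network-forming class split between its members. Col10a1, the chain of type X collagen, read 5.53 and 5.52 on the mutant-labelled arrays and 7.37 and 7.79 on the wild-type arrays. The differences within the replicates were -1.84 and -2.26, and their mean of -2.05, or 4.15-fold lower, had an SE of 0.19 (limma adjusted p = 0.258 and unadjusted p = 0.000728). The mutant-labelled values lay 1.02 and 0.44 above the floor of their arrays, against 2.86 and 2.72 for the wild-type values, so the lower level is close to background. Col8a1, a type VIII chain of vessel walls and the cornea, read 12.93 and 12.98 against 12.68 and 12.76. Both mutant-labelled arrays were higher, by 0.25 and 0.22 within the replicates, with a mean of 0.23 (SE 0.11, limma adjusted p = 1). Col8a2, the other type VIII chain, read 8.82 and 9.11 against 8.57 and 9.09, and its groups overlapped. The class of 3 had 1 gene lower and 2 higher in both replicates. Its median of 0.13 was -0.13 without wild-type replicate 1, where the median of all tested genes moved to -0.14.

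FACIT collagens held several of the lower genes. Col14a1, which binds the surface of type I fibrils in skin and tendon, read 9.23 and 9.41 on the mutant-labelled arrays against 10.36 and 10.43. Its differences were -1.14 in replicate 1 and -1.01 in replicate 2, and their mean, 2.11-fold lower, was -1.07 (SE 0.13, limma adjusted p = 0.373). Its spread within groups was small (SD 0.13 and 0.05, n = 2 each) and the groups did not overlap. Col22a1, known from tissue junctions such as those of muscle and tendon, read 5.91 and 6.37 against 6.50 and 7.07, with no overlap. The differences were -0.59 and -0.71, and the mean of -0.65, 1.57-fold lower, had an SE of 0.30 (limma adjusted p = 1). At 1.51-fold in replicate 1 this gene was just inside the 1.5-fold limit, and with single arrays dropped its difference ran from -0.94 to -0.36.

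The 3 chains of type IX collagen, which decorates type II fibrils in cartilage, all read lower in replicate 1. Col9a3 read 7.67 and 7.99 against 8.41 on each wild-type array, with -0.74 and -0.42 within the replicates. Its mean of -0.58 (SE 0.16, limma unadjusted p = 0.0275) was just outside the 1.5-fold limit, with 1.34-fold in replicate 2. Col9a1 read 7.49 and 7.61 against 7.80 and 8.09, with no overlap. Col9a2 read 8.03 and 8.67 against 8.29 and 8.67, equal in replicate 2. Col12a1, a FACIT of tendon, periosteum and bone, was higher in both replicates, by 0.25 and 0.14, with overlapping groups (13.37 and 13.54 against 13.12 and 13.40). Col20a1 rested on replicate 2 alone, at 0.04 and 0.49, and Col16a1 differed by -0.08. Col19a1 was equal in both replicates. The class median over 9 genes was -0.13, with 5 lower and 2 higher in both replicates, and it was 0.0161 without mutant-labelled replicate 1, where the median of all tested genes moved to 0.14.

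**Figure D2:**
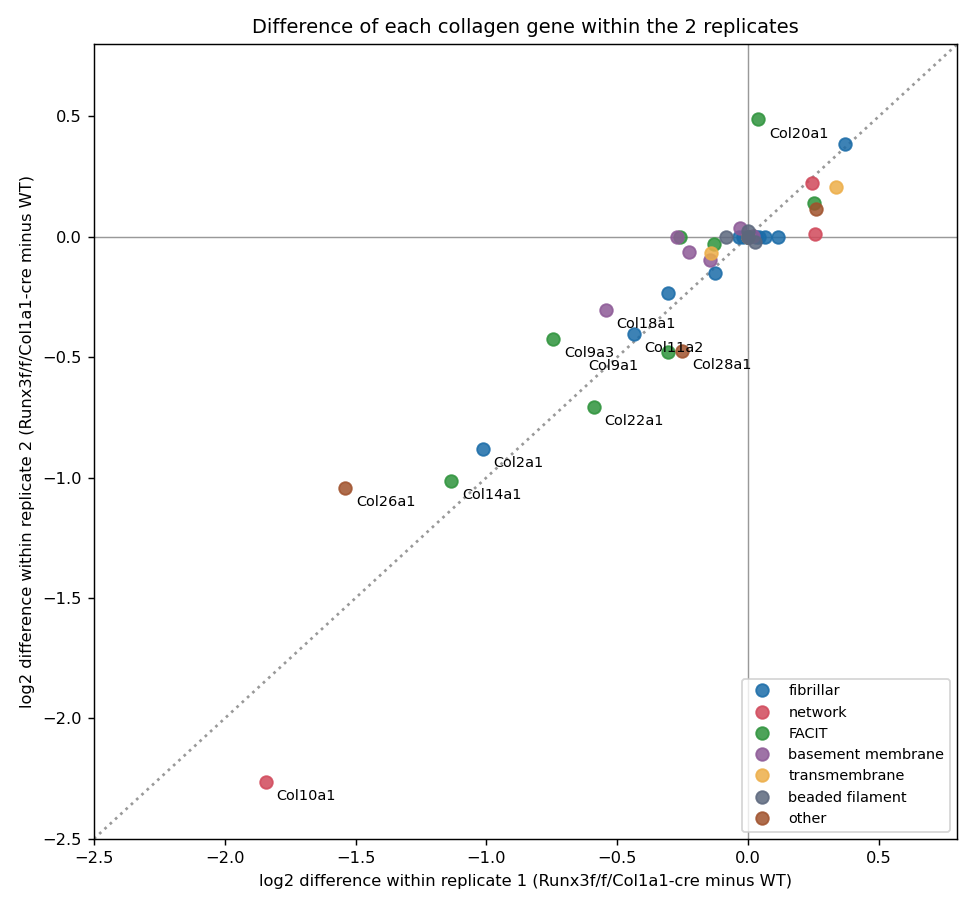
log2 difference of each collagen gene (Runx3f/f/Col1a1-cre minus WT) within replicate 1 (x axis) and replicate 2 (y axis), coloured by class; the dotted line marks equal differences. Col10a1 lies at -1.84 and -2.26, Col26a1 at -1.54 and -1.04, and Col14a1 and Col2a1 near -1 on both axes, while many points lie on the horizontal line of equal values in replicate 2.

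The differences of the 2 replicates, which share no array, went together across the 44 collagen genes (Pearson r = 0.93, Spearman rho 0.87), where over all named genes they were 0.82 and 0.58. These correlations are descriptions across genes, which are not independent, and the exactly equal values enter them. Opposite signs were seen in 2 collagens, Col4a3 (-0.03 and 0.04) and Col6a2 (0.02 and -0.02). Of the genes labelled in the plot of both differences, Col20a1 stood near 0 in one replicate only.

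Basement membrane collagens showed the type IV chains with little difference and a lower Col18a1. Col4a1 and Col4a2, the type IV chains found in nearly every basement membrane, read 10.55 and 10.44 against 10.55 and 10.44, and 10.57 and 10.72 against 10.55 and 10.72. Col4a3 and Col4a4, chains of kidney and other specialised membranes, were dim and differed by 0.00 each. Col4a5 and Col4a6 were lower in both replicates by small amounts, -0.15 and -0.12 in the mean, with overlapping groups. Col18a1, whose end fragment is endostatin, read 8.99 and 8.90 against 9.53 and 9.21. Its mutant-labelled arrays both lay below the wild-type arrays, by -0.54 and -0.30 within the replicates (mean -0.42, SE 0.17). Col15a1, a related chain, was at -0.27 in replicate 1 and equal in replicate 2. The class median over 8 genes was -0.06, with 3 lower and 1 higher in both replicates. It was 0.0962 without mutant-labelled replicate 1 and 0.0323 without wild-type replicate 2. In each of these settings the median of all tested genes moved to 0.14, above the class median.

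Chains whose genes neighbour each other in the genome (within 100 kb in RefSeq, GRCm38.p6) formed 8 pairs. The annotated genes of 2 pairs overlap, Col4a4 with Col4a3 by 114 bases and Col4a1 with Col4a2 by 85. Col4a1 lies on the minus strand and Col4a2 on the plus strand. Whether any probe lies in the shared bases was not tested. Differences were alike in Col4a1 with Col4a2 (0.00 and 0.01), Col3a1 with Col5a2 (0.02 and 0.03), Col6a2 with Col6a1 (0.00 and 0.01) and Col4a6 with Col4a5 (-0.12 and -0.15). All of these lay within 0.3 of 0, as did 33 of the 44 collagens, so their likeness says little about neighbours. Col6a2 had opposite signs within the replicates. Col9a1 and its neighbour Col19a1 were unlike, at -0.39 and 0.00. Col19a1, a FACIT, read 4.54 and 5.84 in both groups, near the floor of replicate 1. The other pairs were Col4a4 with Col4a3 and Col6a5 with each of Col6a4 and Col6a6, all near 0.

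Transmembrane collagens were mostly dim. Col23a1, a membrane collagen that can be shed from cells, read 8.04 and 8.07 against 7.70 and 7.86. Both mutant-labelled arrays were higher, by 0.34 and 0.21 within the replicates, and the mean of 0.27 (SE 0.12) was not past the threshold (limma adjusted p = 1). Col13a1, known from the neuromuscular junction, was at -0.14 and -0.07 with overlapping groups. Col17a1, a hemidesmosome collagen of the epidermis, read 5.64 and 5.83 in both groups, and Col25a1 5.82 and 5.69. Of the 4 genes 1 was lower, 1 higher and 2 equal in both replicates, and the class median was 0.

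Type VI collagen, which forms beaded filaments in the matrix around cells, was close to 0 in its 3 main chains. Col6a1 read 12.90 and 13.08 against 12.90 and 13.06, and Col6a2 12.17 and 12.41 against 12.15 and 12.43. Col6a3 read 11.54 and 11.65 against 11.62 and 11.65. Col6a4, Col6a5 and Col6a6 were dim and equal in both replicates. A second row of Col6a1 differed by 0.04, and the class ran from -0.04 to 0.01, with 0 genes lower, 1 higher and 3 equal in both replicates.

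Of the remaining 3 genes, Col26a1, which encodes a collagen with an EMI domain, read 7.91 and 8.03 on the mutant-labelled arrays and 9.45 and 9.07 on the wild-type arrays. The replicates differed by -1.54 and -1.04, on average 2.45-fold lower, at a mean of -1.29 (SE 0.18, limma adjusted p = 0.434). Col7a1, the anchoring fibril chain of skin, read 8.40 and 8.30 against 8.13 and 8.19, higher by 0.26 and 0.11 without overlap. Col28a1 read 4.58 and 5.01 against 4.84 and 5.48, at -0.25 and -0.47, with overlapping groups and values that stood between -0.07 and 0.41 from the floor.

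Arrays of the 2 groups did not overlap in 9 lower collagens, beside 7.6% of all named genes, and in 4 higher ones, beside 6.35%. The lower ones were Col10a1, Col26a1, Col14a1, Col2a1, Col22a1, Col9a3, Col18a1, Col11a2 and Col9a1, and the higher ones Col27a1, Col23a1, Col8a1 and Col7a1. When the values were quantile-normalized once more and fitted with the block, limma gave an adjusted p under 0.05 to 3 collagens, Col14a1, Col11a2 and Col2a1, and to 2.57% of all tested genes.

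**Figure D3:**
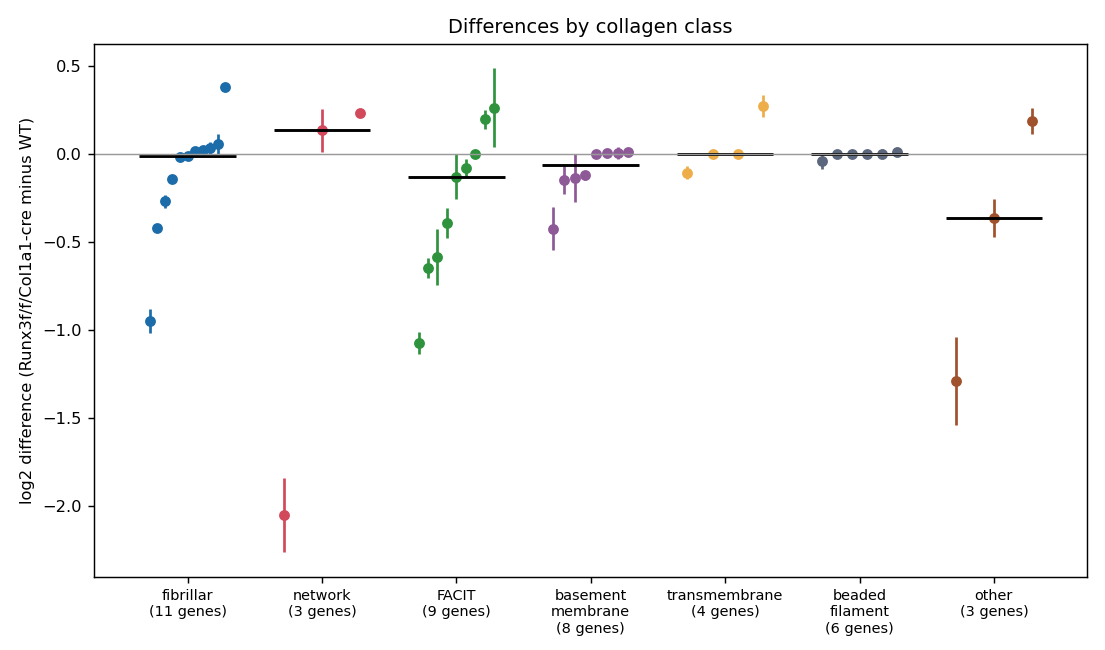
log2 difference of each collagen gene (Runx3f/f/Col1a1-cre minus WT, y axis) by class (x axis); points are means of the 2 within-replicate differences, vertical lines join the 2 replicates, and black bars are class medians. Medians run from -0.36 for the 3 other genes to 0.13 for the network class, and Col10a1 at -2.05 and Col8a1 at 0.23 stand in the same class.

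The genes were also grouped by tissue, after these values were seen. Of 7 chains known from cartilage (Col2a1, Col9a1, Col9a2, Col9a3, Col10a1, Col11a1 and Col11a2), 5 were lower and 0 higher in both replicates, with a median of -0.42 in the mean difference; Col2a1 and Col10a1 were the 2 of them at least 1.5-fold lower in both. With Col27a1, which cartilage also makes, counted in, 5 of 8 were lower and 1 higher, and the median was -0.41. Of all named genes 16.6% were lower and 14.3% higher in both replicates, and of tested genes 20.2% and 17.4%. The 5 chains of bone and skin fibrils (Col1a1, Col1a2, Col3a1, Col5a1 and Col5a2) ran from -0.02 to 0.03. Since the groups were picked with the values known, they describe the data and carry no test.

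Markers of several cell types differed between the same arrays, and their part in the collagen differences was not tested. In RNA of a whole culture, fewer cells of a type cannot be told apart from less RNA per cell. Of all named genes 16.6% were lower and 14.3% higher in both replicates, and of tested genes 20.2% and 17.4%. Of 9 chondrocyte markers 5 were lower and 0 higher in both replicates, and their summed level was 12.98 and 13.17 on the mutant-labelled arrays against 13.38 and 13.50, on the log2 scale. Cnmd, which encodes chondromodulin, was at -1.22 and Acan, the cartilage proteoglycan gene, at -0.36, whereas Sox9, the chondrocyte transcription factor, was at -0.02 and Matn1 lay below the floor on every array. All 12 macrophage markers were lower in both replicates, with summed levels of 11.25 and 11.37 against 12.90 and 12.97. Of 8 osteoblast markers 6 were lower and 1 higher in both, at 12.78 and 12.99 against 13.64 and 13.89. The lower ones were led by Ibsp, the bone sialoprotein gene, at -1.55, while Alpl, alkaline phosphatase, was at -0.03. The higher one was Sp7, at 0.29 and 0.08 within the replicates. The 7 adipocyte markers, 6 of them lower in both, summed to 11.20 and 11.07 against 11.81 and 11.62, with Adipoq below the floor on every array. The 8 endothelial markers summed to 9.35 and 9.51 against 8.45 and 9.01, led by Cdh5 at 1.49, with 0 lower and 2 higher in both replicates and Kdr and Tie1 equal in both. The 6 smooth muscle markers summed to 14.48 and 14.68 against 14.53 and 14.74, with 3 lower and 3 higher in both. Mylk, myosin light chain kinase, was at 0.77 and Myh11, smooth muscle myosin, at 0.58, the 2 members with an unadjusted limma p under 0.05. Smtn was at 0.19, and the lower ones were Tagln at -0.27, Cnn1 at -0.23 and Acta2 at -0.11. Of 7 tendon and fibroblast markers, which stand beside the higher Col12a1, 5 were higher and 1 lower in both replicates, at 14.54 and 14.67 against 14.46 and 14.62.

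The tissue tag of all 4 samples reads myoblast and the cell type tag primary osteoblast. The 10 skeletal muscle markers summed to 9.60 and 10.10 on the mutant-labelled arrays against 9.44 and 10.08. On all 4 arrays 8 of them lay above the floor, as did 15839 of all 22180 named genes. Des, the muscle desmin gene, read from 7.59 to 8.24 and Acta1, skeletal actin, from 7.02 to 8.06, while Myod1 (5.45 and 6.42) and Myog (5.95 and 6.72), the myogenic factors, were equal between the groups and Myh3 and Ttn lay below the floor. All 8 osteoblast markers lay above it on every array, Alpl from 11.33 to 11.42, Sp7 from 9.84 to 10.15 and Bglap, the osteocalcin gene, from 5.19 to 6.06. Runx2, Spp1 and Bglap2 of the osteoblast list and Cfd of the adipocyte list were not analysed here.

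Genes that modify, carry, trim, cross-link or bind collagen gave 0 past the limma adjusted threshold in either direction among 48 tested, where 0% of all tested genes passed. At an unadjusted p under 0.05 there was 1 of the 48, P3h2, where 4.35% of all tested genes had such a p. With quantile normalization again and the block together 1 passed the adjusted threshold, Itga11, beside 2.57% of all tested genes.

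Of 14 genes for hydroxylation and glycosylation of collagen chains, 8 were lower and 3 higher in both replicates, with a median of -0.05. Beside this list and those below, 20.2% of all tested genes were lower and 17.4% higher in both replicates. P3h2, a prolyl 3-hydroxylase of basement membrane collagens, read 6.06 and 6.04 against 6.87 and 6.44 and was 1.53-fold lower (mean -0.61, SE 0.19, limma unadjusted p = 0.0406 and adjusted p = 1). Its mutant-labelled arrays both lay below the wild-type arrays. Plod2, which hydroxylates lysines of the telopeptides, was at -0.22 and P4hb, the shared subunit of prolyl 4-hydroxylase, at -0.17.

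Of 13 chaperone and secretion genes 3 were lower and 2 higher in both replicates, and their differences ran from -0.12 to 0.18. Serpinh1, the collagen chaperone HSP47, read 11.73 and 11.81 against 11.85 and 11.93, at -0.12 in each replicate. Hspa5, the general chaperone BiP, was at 0.01 in replicate 1 and 0.35 in replicate 2. Creb3l2, a transcription factor for secretion genes, was at 0.09.

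Of 11 genes for propeptide removal and cross-linking 5 were lower and 0 higher in both replicates, with a median of -0.06. Pcolce2, an enhancer of propeptide cleavage, read 8.38 and 8.67 against 8.81 and 9.01, at -0.44 and -0.34 within the replicates. Loxl3, a lysyl oxidase relative, was at -0.34 and Loxl4, another, at -0.32.

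Among 10 collagen receptors 4 were lower and 3 higher in both replicates. Itga11, the integrin subunit that binds fibrillar collagens on mesenchymal cells, read 11.57 and 11.83 against 11.09 and 11.32, higher by 0.48 and 0.51 (mean 0.49, SE 0.17, limma adjusted p = 1, and 0.0454 with quantile normalization again and the block). Itga2, another collagen-binding subunit, was at 0.22 and 0.23 with overlapping groups. Lair1, an inhibitory collagen receptor of leukocytes, was at -0.47, where macrophage markers were lower on the same arrays; it lay above the floor on 2 arrays only. Plod3, Fkbp10, Adamts2, Loxl2 and Itga10 of these lists were not analysed here.

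**Figure D4:**
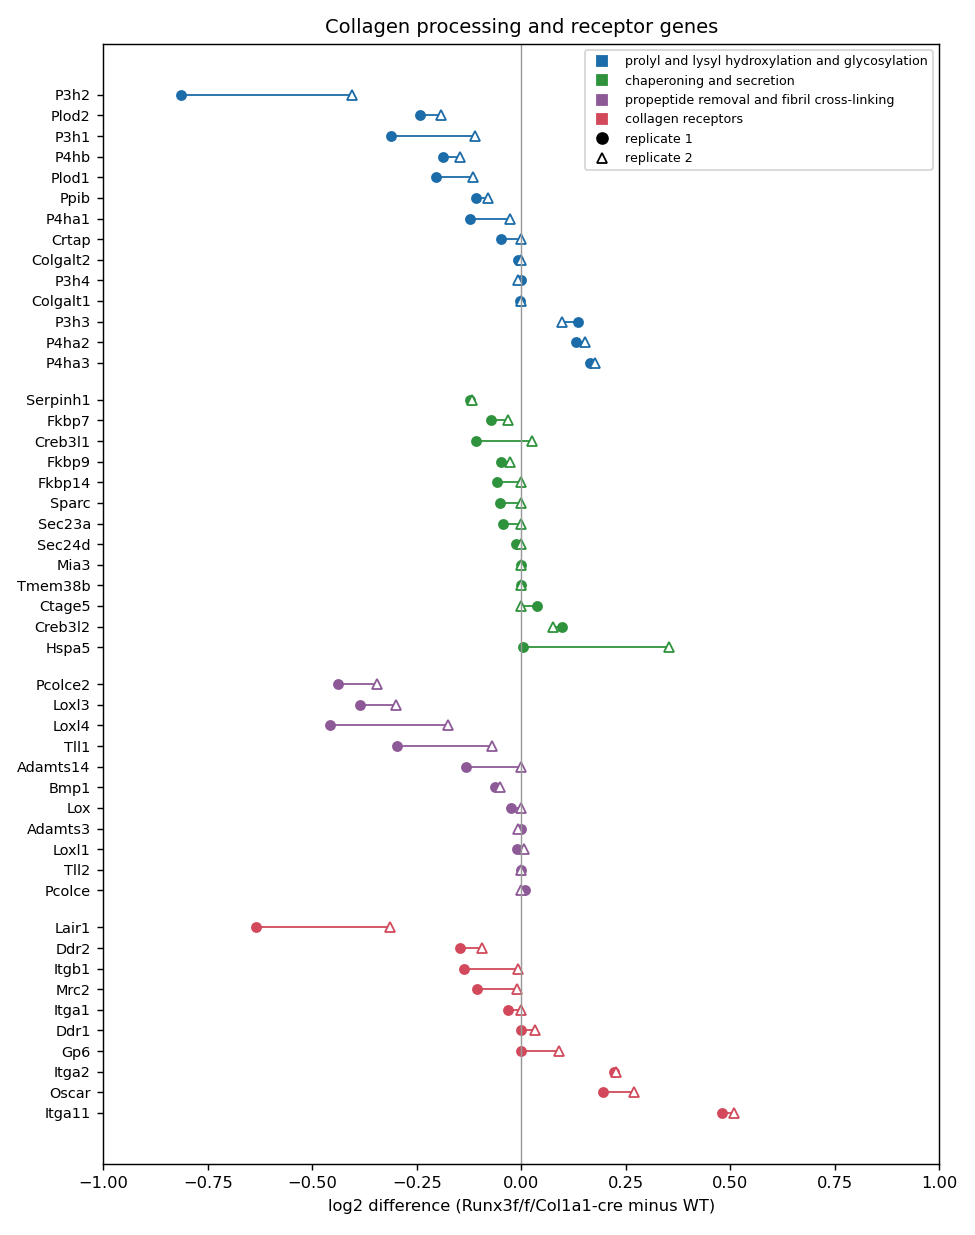
log2 difference (x axis, Runx3f/f/Col1a1-cre minus WT) of 48 genes of collagen processing, secretion, cross-linking and reception (y axis), coloured by list; circles are replicate 1 and open triangles replicate 2, joined by a line. P3h2, at -0.82 and -0.41, lies furthest to the left and Itga11, at 0.48 and 0.51, furthest to the right.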

How the data were processed

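Total RNA of 4 cultures was measured on 4 arrays. The authors deposited 1 value per array row, taken here to be log2; Partek and RMA appear in the submitters' processing notes without version, role or order, and neither log base nor centring is stated. Groups and replicate numbers came from the sample titles.

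Rows were named through the platform annotation: 23521 of 41345 rows had 1 symbol, 1814 several and 16010 none listed. Per gene the row of highest mean stood for it, and 47 rows named the 44 collagens. Genes above the floor on at least 2 arrays, 17043 in all, were fitted with limma 3.58.1 in R 4.3.3 (lmFit and eBayes, all arrays, two-sided, no term but group), with Benjamini-Hochberg adjustment; the code was tested on simulated data. The mean of the differences within both replicates equals limma's difference. Summed marker levels are log2 of the sum of unlogged values. The number of arrays, 2 per group, limits the precision.

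Genes described array by array were Col1a1, Col1a2, Col2a1, Col3a1 and Col10a1, neighbouring pairs above the floor, up to 3 members per class with the largest difference, and up to 3 per processing list with the smallest p; the remaining collagens are accounted for more briefly. Members, classes, lists and tests were chosen with earlier results of these data known. Alternatives covered the floor, normalization, rows per gene, the variance model, the replicate block, equal values and each array left out; the floor on each array was chosen, and 1 floor for all arrays added as an alternative, after the data were seen.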

Additional observations from a re-analysis of the deposited data

How the results depend on the processing

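The replicate numbers share no stated litter or day, so the block is an alternative. Same-numbered arrays deviated together (r = 0.92 over 17043 genes), and this rests on 2 pairs. The exactly equal values enter this correlation: the 4173 tested genes equal in both replicates have identical deviations by construction. With the replicate block 0 collagens passed the adjusted threshold. The block with quantile normalization again called 3 collagens, Col14a1 (-1.08), Col11a2 (-0.48) and Col2a1 (-0.95), and 1 processing or receptor gene, Itga11. The intensity trend called 37 genes of all tested and 0 collagens. Collagens at unadjusted p under 0.05 went from 5 (4.35% of all tested genes) to 9 with the block (13.6%), 11 with quantile normalization again (7.69%) and 19 with both (21%); those also 1.5-fold apart went from 4 to 6 in both, and with single arrays dropped they numbered 4 to 5. Collagens 1.5-fold lower within both replicates were 4 with median centring and 5 in the other settings tried. Quantile normalization again, which shifts the median of tested genes to -0.03, gave 0.0245 for fibrillar, -0.0380 for transmembrane, -0.0998 for basement membrane, -0.0325 for beaded filament and -0.0358 for all collagens. Median centring gave 0.0075 for transmembrane, beaded filament and all collagens. The mean of all rows gave 0.0072 for fibrillar. Leaving out genes with equal values, by construction those with a difference of 0 in a replicate, gave -0.2695 for fibrillar, -0.3940 for FACIT, -0.1221 for basement membrane (also with a higher floor, the median row level), 0.0829 for transmembrane, 0.0061 for beaded filament and -0.1221 for all collagens.

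Signs turned for Col1a1 (0.0245), Col1a2 (0.0132) and Col4a3 (-0.0205) with quantile normalization again, with or without the block, and for Col1a2 (0.0226) with the mean of its rows. With an array dropped, groups no longer hold the same replicate numbers, and tested genes had a median of 0.14 (mutant-labelled replicate 1 or wild-type replicate 2 dropped), -0.14 (wild-type replicate 1) or -0.15 (mutant-labelled replicate 2). Over these, medians ran from -0.0688 to 0.0238 for fibrillar, -0.1305 to 0.2712 for network, -0.5403 to 0.0161 for FACIT, -0.3763 to 0.0962 for basement membrane, -0.0133 to 0.1727 for transmembrane, -0.2447 to 0.2453 for beaded filament and -0.3115 to 0.0498 for all collagens. Signs turned in Col1a1 from -0.0688 to 0.0491, Col1a2 from -0.0783 to 0.0420, Col3a1 from -0.0295 to 0.0716, Col5a2 from -0.0033 to 0.0682, Col4a3 from -0.3743 to 0.3801, Col6a2 from -0.1429 to 0.1442, Col6a1 from -0.0782 to 0.1012, Col4a1 from -0.0526 to 0.0570, Col4a2 from -0.0694 to 0.0937, Col4a6 from -0.5581 to 0.3140, Col4a5 from -0.3352 to 0.0435, Col15a1 from -0.3783 to 0.1067, Col6a3 from -0.0986 to 0.0124, Col8a2 from -0.1305 to 0.3982 and Col13a1 from -0.4632 to 0.2516. Col19a1, Col4a4 and Col17a1, at 0 with all arrays, went both ways, by up to 0.65, 0.56 and 0.09. Col10a1 ran from -2.26 to -1.85, Col26a1 from -1.48 to -1.10, Col14a1 from -1.17 to -0.98, Col2a1 from -1.11 to -0.78, Col22a1 from -0.94 to -0.36, Col11a2 from -0.62 to -0.22, Col18a1 from -0.59 to -0.26, Col9a1 from -0.54 to -0.25 and Col27a1 from 0.22 to 0.53. Over all single genes described and not at 0, those above included, 262 values with all arrays kept direction and side of the threshold. Another 7 turned sign and 3 passed the threshold. With an array left out 86 kept both and 26 turned sign.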
